A study of Mus musculus with 4 samples.

Results

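The p53 pathway genes MDM2, CCNG1, PHLDA3, TP53INP1, ZMAT3 and BTG2 and the stress genes GADD45A and GADD45B were examined in cultured mouse CD4+ T cells. The members were the gene models whose symbol equals one of these names, and all 8 were found among the 38588 models listed. RbLoTem cells are FoxP3-negative effector/memory cells with low CD45Rb (CD62L-, CD44+), which the study set against RbHiTn cells, the naive cells with high CD45Rb (CD62L+, CD44-), to look for a mediator made by the RbLoTem subset. Both were flow sorted from spleens of resting C57BL/6-Foxp3tm1Flv/J mice, which all carry the Foxp3 reporter allele, and both were cultured on plate-bound anti-CD3 antibody for 72 hours, so that there is no unstimulated sample. Each subset has 2 libraries, 1 with no label suffix and 1 with the suffix o, whose meaning the labels do not give. The labels give no age, sex or number of animals, and nothing says that the libraries came from separate cultures or mice. P-values therefore cover only how far these libraries scatter, and that scatter may be technical.

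p53 is a transcription factor that is held at low levels by MDM2 and is released by DNA damage and other stress. It then switches on genes that stop the cell cycle, start apoptosis or repair DNA, and MDM2 itself, which closes a negative feedback loop. In T cells the pathway is engaged during the rapid division that follows activation. GADD45 proteins are small stress-induced proteins that bind cell cycle and DNA repair proteins and regulate p38 and JNK kinase signalling.

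The libraries held between 4192083 and 6514106 reads in genes, and 8416 to 8678 models per library had a read. The models are named and placed as human genes while the cells are mouse, so levels are compared between libraries for 1 gene, and comparisons between genes are less certain. Of the models, 6539 had enough reads to test, and 3137 of them (48.0%) passed the threshold, an adjusted p below 0.05 in edgeR's quasi-likelihood test with Benjamini-Hochberg adjustment over all tested models. RbLoTem cells were higher for 24.3% of tested models and lower for 23.6%. Of 16 T cell markers with a model, 12 had reads, 5 of 11 tested were lower and none was higher. The summed B cell markers, over 12 models, stood at 0.278 and 0.328 RPKM in the RbLoTem libraries, against 9.35 and 10.2 RPKM in the RbHiTn libraries. CD79A, MS4A1 and BLK were at 0 in both RbLoTem libraries. The summed dendritic cell, monocyte and macrophage markers, over 16 models, were 2.49 and 2.83 RPKM in RbLoTem libraries and 24.5 and 18.4 RPKM in RbHiTn libraries. Of these 16 models, 9 had no read in any library, among them ITGAX, CSF1R and CD14. The T cell marker CD3D had no read either, so a 0 on these human models does not show that a gene was silent. Most of the RbHiTn sums came from IRF8, HLA-DRB1 and HLA-DQA1. In such bulk samples, fewer cells of a type and less RNA per cell cannot be told apart.

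Among the 8 genes, MDM2, CCNG1 and PHLDA3 were higher in RbLoTem cells and TP53INP1 was lower. BTG2 did not pass the threshold, and ZMAT3, GADD45A and GADD45B had too few reads to test. Of the 5 tested genes, 4 were called, where 48.0% of all tested models were. TP53INP1, 1 of the 4, passed the filter on low counts only through its RbHiTn libraries. Such a filter favours genes that differ, and nothing is read from the count. Both RbLoTem libraries lay above both RbHiTn libraries for 6 of the 8 genes and below them for TP53INP1 and BTG2. The same order was found for 28.5% (above) and 31.4% (below) of the 9770 models with any read. RPKM here is exon reads divided by the exon length in kilobases, and then scaled to 1000000 reads in genes in each library.

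**Figure D1:**
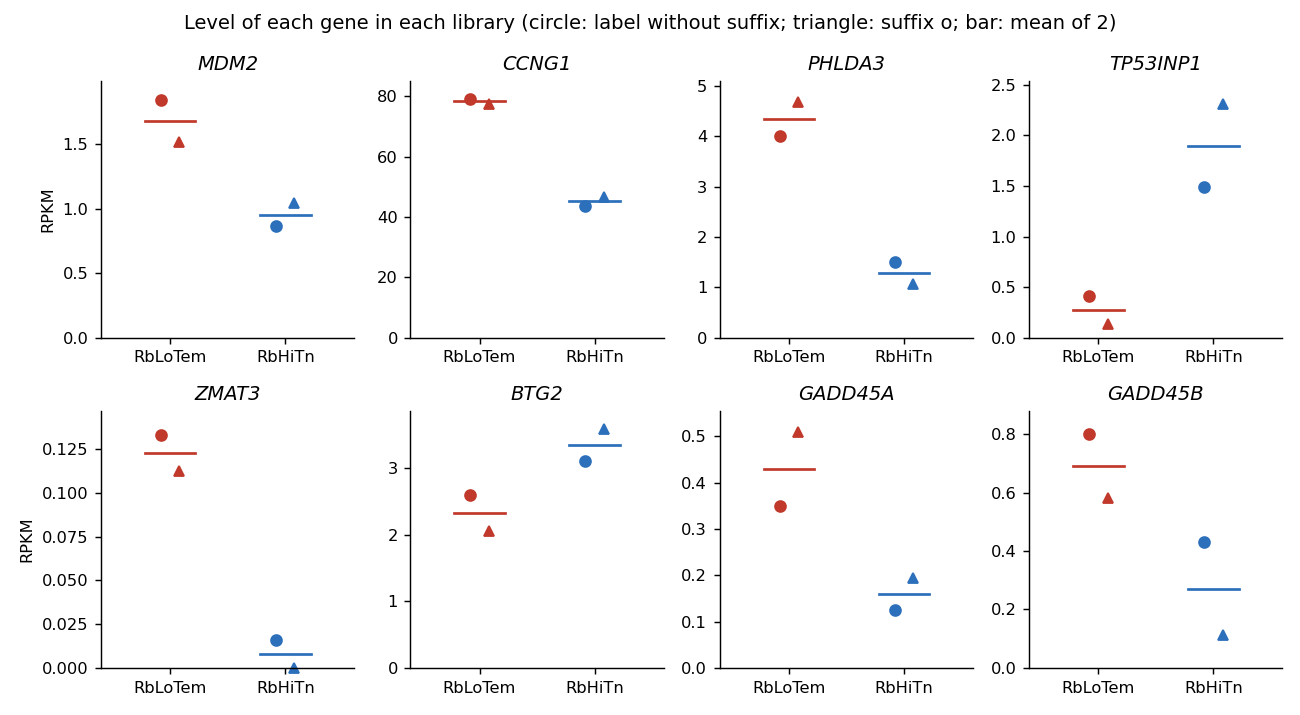
RPKM of each of the 8 genes in the 4 libraries (linear axis, its own scale in each panel), with the RbLoTem libraries left of the RbHiTn libraries and a line at each subset's mean. Circles are the libraries with no suffix and triangles those with the suffix o. CCNG1 lay between 77.6 and 79.3 RPKM in RbLoTem libraries and between 43.6 and 46.8 RPKM in RbHiTn libraries. ZMAT3, GADD45A and GADD45B stayed below 1 RPKM in all 4 libraries.

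MDM2 is the ubiquitin ligase that marks p53 for degradation and is itself a p53 target. MDM2 had 69 and 78 exon reads in RbLoTem libraries (1.85 and 1.52 RPKM), against 45 and 35 reads in RbHiTn libraries (0.864 and 1.04 RPKM). The subsets did not overlap, and the RbLoTem library with no suffix was the highest. MDM2 averaged 1.68 ± 0.233 RPKM in RbLoTem cells and 0.954 ± 0.127 RPKM in RbHiTn cells (SD, n = 2 each). This was 1.78-fold higher, a log2 fold change of 0.83 (SE 0.22), with an adjusted p of 0.0018 in edgeR. The call was lost with DESeq2 (adjusted p = 0.089) and when RbHiTn replicate 1, the library with no suffix, was left out (log2 fold change 0.68, adjusted p = 0.051 in edgeR). The human model spans chromosome 12 from 69201971 to 69239211. MDM4, the related protein that blocks p53 without degrading it, averaged 1.81 ± 0.158 RPKM in RbLoTem cells and 1.75 ± 0.257 RPKM in RbHiTn cells, a difference within the spread between libraries (log2 fold change 0.07, SE 0.16, adjusted p = 0.76 in edgeR).

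CCNG1 encodes cyclin G1, a p53 target that brings the phosphatase PP2A to MDM2. It was the most abundant of the 8 genes per kilobase. CCNG1 had 1147 and 1545 exon reads in RbLoTem libraries (79.3 and 77.6 RPKM), against 879 and 607 reads in RbHiTn libraries (43.6 and 46.8 RPKM). The libraries of each subset lay close together and far from the other subset. CCNG1 averaged 78.4 ± 1.19 RPKM in RbLoTem cells and 45.2 ± 2.25 RPKM in RbHiTn cells (SD, n = 2 each), 1.75-fold higher (log2 fold change 0.81, SE 0.07, adjusted p = 6.4e-12 in edgeR). For reference, 8.73% of tested models were called higher with a log2 fold change of 0.8 or more. The model lies on human chromosome 5 from 162864575 to 162873157. Its relative CCNG2, cyclin G2, which is not grouped with the p53 targets here, was lower, at 0.506 ± 0.108 RPKM in RbLoTem cells and 1.09 ± 0.175 RPKM in RbHiTn cells (log2 fold change -1.04, SE 0.29, adjusted p = 0.0030 in edgeR).

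The mouse promoters of these feedback genes are shown because p53 acts on its targets through a DNA element built of a pair of adjacent p53 decamers. RefSeq windows of 300 bases (250 before to 50 after the start, GRCm38.p6) were available for 6 of the 8 genes. Capitals mark the full p53 response element (20 bases, 1 mismatch from the consensus) in Ccng1 and a decamer with no mismatch in Mdm2.
Ccng1, chr11:40755237-40755536, minus strand: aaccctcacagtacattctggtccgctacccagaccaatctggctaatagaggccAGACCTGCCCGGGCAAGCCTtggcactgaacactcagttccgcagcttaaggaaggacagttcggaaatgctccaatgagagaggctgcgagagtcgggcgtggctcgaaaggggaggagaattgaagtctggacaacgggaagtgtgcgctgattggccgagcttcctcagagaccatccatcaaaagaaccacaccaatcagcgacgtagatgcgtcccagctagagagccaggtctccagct
Mdm2, chr10:117710709-117711008, minus strand: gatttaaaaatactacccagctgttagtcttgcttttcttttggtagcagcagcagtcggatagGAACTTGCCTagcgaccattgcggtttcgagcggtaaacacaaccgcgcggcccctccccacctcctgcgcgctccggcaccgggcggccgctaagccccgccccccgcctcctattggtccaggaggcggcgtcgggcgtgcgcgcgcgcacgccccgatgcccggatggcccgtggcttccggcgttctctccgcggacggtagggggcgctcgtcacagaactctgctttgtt
The Ccng1 element runs from 195 to 176 bases before the start, and the Mdm2 decamer from 186 to 177 bases before it. The decamer pattern, though not each match to it, reads the same on both strands, so that 1 scan covers both. It was found in the windows of Ccng1, Mdm2 and Gadd45a among the 6, and in 8.36% of all 32851 windows. Only the Ccng1 window among the 6 held the full element, which was found in 29 of all windows (0.0883%) with at most 1 mismatch and no spacer. The p53 elements known in MDM2 lie in its first intron, outside such a window. A match is a description of the sequence, and p53 binding was not measured.

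PHLDA3 is a small lipid-binding protein that competes with the kinase AKT at the membrane and is a p53 target. PHLDA3 had 38 and 61 exon reads in RbLoTem libraries (4.01 and 4.67 RPKM), against 20 and 9 reads in RbHiTn libraries (1.51 and 1.06 RPKM). Both RbLoTem libraries stood above both RbHiTn libraries. The means were 4.34 ± 0.472 RPKM in RbLoTem cells and 1.29 ± 0.322 RPKM in RbHiTn cells (SD, n = 2 each), 3.29-fold higher (log2 fold change 1.72, SE 0.30, adjusted p = 1.5e-05 in edgeR). This was the largest increase among the tested members, and the call held in every alternative run. None of the 128 PHLDA3 reads spanned an exon junction, whereas 76.0% of reads did over all models. The model lies on human chromosome 1 from 201434620 to 201438365. PHLDA1, a relative induced by T cell receptor signals, was also higher, at 1.70 ± 0.377 RPKM in RbLoTem cells and 0.632 ± 0.183 RPKM in RbHiTn cells (log2 fold change 1.40, SE 0.24, adjusted p = 1.3e-05 in edgeR), and PHLDA2 had no read.

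TP53INP1 is a stress protein that p53 induces and that promotes apoptosis and autophagy. TP53INP1 had 11 and 5 exon reads in RbLoTem libraries (0.414 and 0.137 RPKM), against 55 and 55 reads in RbHiTn libraries (1.49 and 2.31 RPKM). Every RbHiTn library stood above every RbLoTem library. The means were 0.275 ± 0.196 RPKM in RbLoTem cells and 1.90 ± 0.582 RPKM in RbHiTn cells (SD, n = 2 each), 7.06-fold lower (log2 fold change -2.82, SE 0.37, adjusted p = 1.3e-07 in edgeR). The gene passed the filter on low counts only through RbHiTn libraries, which favours a difference, so nothing is read from this call. Without the RbLoTem library with no suffix the log2 fold change was -3.69, and without the RbLoTem library with the suffix o it was -2.12. Only 64.3% of its exon reads were unique to the model, compared with 90.2% over all models, and with unique reads alone the log2 fold change was -2.43. The B cell and myeloid marker sums given above also were lower in RbLoTem cells, and their part in this result was not tested. The model lies on human chromosome 8 from 95938200 to 95961639.

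ZMAT3 is a zinc finger protein that binds RNA and is a p53 target. ZMAT3 had 6 and 7 exon reads in RbLoTem libraries (0.133 and 0.113 RPKM), against 1 and 0 reads in RbHiTn libraries (0.0159 and 0 RPKM). The sums of 13 and 1 reads give a ratio of 12.6 after scaling to depth, with a 95% interval of 1.89 to 535 from an exact conditional binomial calculation that covers counting error only. The ratio was 7.61 without RbHiTn replicate 2, and without RbHiTn replicate 1, which holds the only RbHiTn read, none could be formed. The gene was left out of the main test. Without the filter, edgeR gave an adjusted p of 0.021 and DESeq2 of 0.17. The model lies on human chromosome 3 from 178735011 to 178790067. Its relative ZMAT2, a splicing factor, was at 42.2 RPKM in RbLoTem cells and 48.9 RPKM in RbHiTn cells and did not pass the threshold (log2 fold change -0.22, adjusted p = 0.16 in edgeR), and ZMAT4 had no read.

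BTG2 is an antiproliferative protein that recruits the CCR4-NOT deadenylase to messenger RNA, and in mice it acts with BTG1 to keep T cells quiescent. BTG2 had 33 and 36 exon reads in RbLoTem libraries (2.59 and 2.05 RPKM), against 55 and 41 reads in RbHiTn libraries (3.10 and 3.59 RPKM). The subsets did not overlap, and the gap between them was small. BTG2 averaged 2.32 ± 0.380 RPKM in RbLoTem cells and 3.35 ± 0.347 RPKM in RbHiTn cells (SD, n = 2 each), which did not pass the threshold (log2 fold change -0.52, SE 0.25, adjusted p = 0.085 in edgeR). None of its 165 reads spanned an exon junction. The model lies on human chromosome 1 from 203274619 to 203278697. BTG1 was far more abundant and was lower, at 156.4 ± 1.94 RPKM in RbLoTem cells and 302.3 ± 3.60 RPKM in RbHiTn cells (log2 fold change -0.94, SE 0.05, adjusted p = 4.9e-16 in edgeR). TOB1, another member of the family, was at 7.76 RPKM in RbLoTem cells and 6.99 RPKM in RbHiTn cells (log2 fold change 0.16, adjusted p = 0.43 in edgeR), and BTG4 had no read.

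GADD45A is a p53 target, and GADD45B is induced by NF-kB and TGF-beta signals. GADD45A had 2 and 4 exon reads in RbLoTem libraries (0.350 and 0.508 RPKM), against 1 and 1 reads in RbHiTn libraries (0.126 and 0.195 RPKM). The read ratio was 2.90, with a 95% counting interval of 0.519 to 29.4. GADD45B had 8 and 8 exon reads in RbLoTem libraries (0.802 and 0.583 RPKM), against 6 and 1 reads in RbHiTn libraries (0.432 and 0.112 RPKM). Its read ratio was 2.21 (0.861 to 6.36), and without RbHiTn replicate 1, the library with 6 reads, it was 6.13. Both intervals include a ratio of 1, and no difference in either gene was detected with these few reads. The GADD45A model lies on human chromosome 1 from 68150912 to 68152271 and the GADD45B model on chromosome 19 from 2476120 to 2478257.

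**Figure D2:**
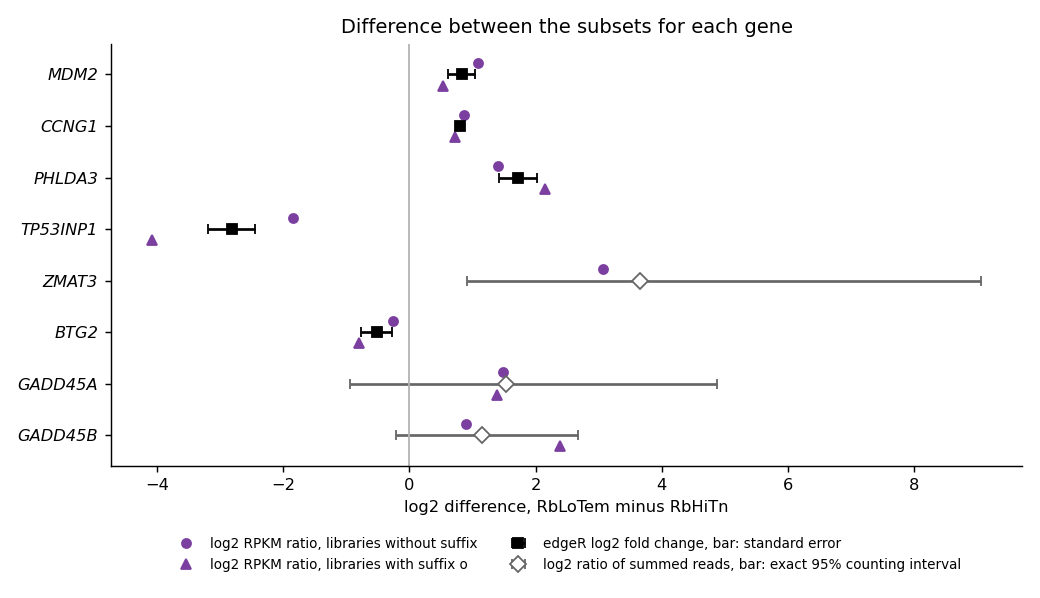
Log2 difference of RbLoTem minus RbHiTn for each of the 8 genes. Circles and triangles are log2 RPKM ratios of the libraries with no suffix and with the suffix o (no triangle for ZMAT3, at 0 in an RbHiTn library), squares with bars are the edgeR log2 fold change and its SE for the 5 tested genes, and diamonds with bars are the ratio of summed reads and its exact 95% counting interval for the other 3. PHLDA3 had the highest fitted value of the 5 (1.72) and TP53INP1 the lowest (-2.82), and the pairs of libraries differed most in TP53INP1 (-1.84 and -4.08).

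CDKN1A, the p21 cell cycle inhibitor and a main p53 target, had no read in any of the 4 libraries. A count of 0 in the summed reads of a subset allows up to 3 reads in that sum. At the summed depth of each subset's libraries, 3 reads are 0.0905 RPKM in RbLoTem cells and 0.0939 RPKM in RbHiTn cells. CD3D, a defining T cell gene, was also at 0 in all 4, so that a 0 on these human models does not show that a gene was silent.

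**Figure D3:**
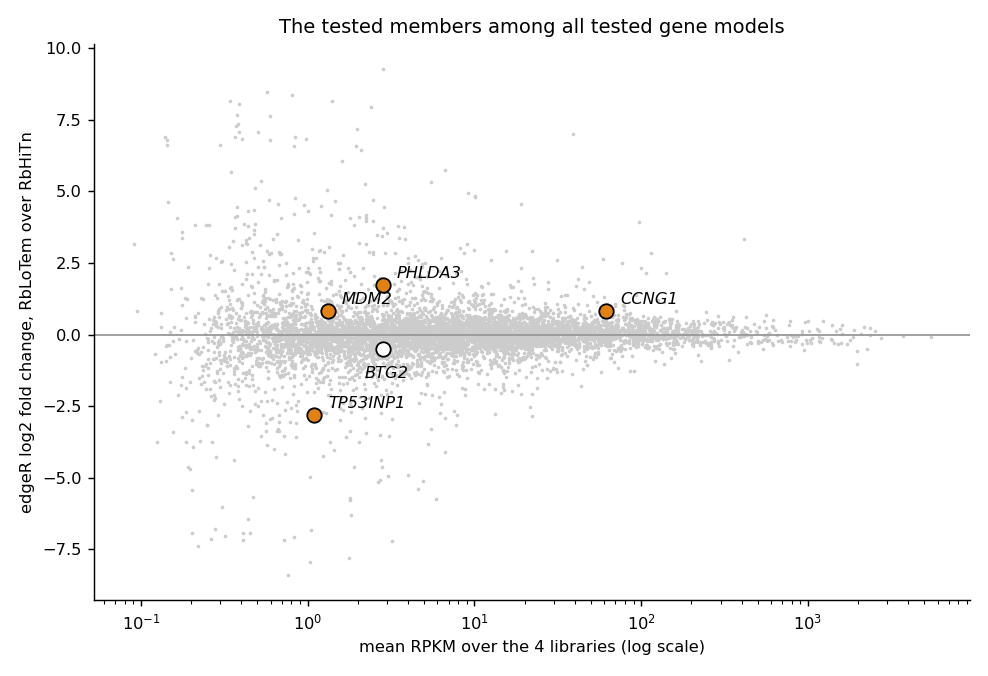
EdgeR log2 fold change of RbLoTem over RbHiTn (vertical axis) against mean RPKM over the 4 libraries (log axis) for the 6539 tested models in grey. The 5 tested members are circles, filled in orange where the adjusted p was below 0.05 and white for BTG2. PHLDA3 (1.72) lay above the other members and TP53INP1 (-2.82) below them.

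Among the regulators of p53, more genes were lower than higher in RbLoTem cells. Of 28 listed regulators, 19 were tested, and 2 were higher, 9 lower and 8 not called (57.9% called, beside 48.0% of all tested models, and a median log2 fold change of -0.14 beside -0.01). HIPK2, a kinase that phosphorylates p53 and directs it towards apoptosis, averaged 14.5 ± 0.549 RPKM in RbLoTem cells and 1.79 ± 0.0425 RPKM in RbHiTn cells, 8.15-fold higher (log2 fold change 3.03, SE 0.09, adjusted p = 3.6e-23 in edgeR). The other increase was in TP53BP2, a p53-binding protein of the ASPP family (log2 fold change 0.42). DYRK2, another kinase of p53, fell to 2.19 ± 0.212 RPKM in RbLoTem cells, against 5.59 ± 0.0541 RPKM in RbHiTn cells (log2 fold change -1.33, SE 0.13, adjusted p = 1.5e-10 in edgeR). PPP1R13B, the ASPP relative of TP53BP2, was at 1.18 RPKM in RbLoTem cells and 2.94 RPKM in RbHiTn cells (log2 fold change -1.31). ATM, the kinase that signals DNA breaks to p53, was at 1.20 RPKM in RbLoTem cells and 2.14 RPKM in RbHiTn cells (log2 fold change -0.83, SE 0.12, adjusted p = 8.9e-07 in edgeR), and the acetyltransferase CREBBP was lower too (log2 fold change -0.53).

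Genes that p53 is known to induce did not move in a single direction. Of 75 listed targets in 3 lists, which include 7 of the members, 38 were tested, and 14 were higher, 8 lower and 16 not called. That is 57.9% called, beside 48.0% over all tested models, with a median log2 fold change of 0.10 beside -0.01. Without the members, 11 of 33 were higher and 7 lower (54.5% called, median 0.09). The lists were drawn up with earlier results of these data known, and they are described by these counts with no test. The counts hold 3 apoptosis targets, given below, that passed the filter on low counts only through a single subset. Nothing is read from those calls.

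Among the cell cycle and feedback targets, 5 of 10 tested were higher, with the members MDM2 and CCNG1 among them, and 1 was lower. The share called was 60.0%, beside 48.0% of all tested models. PLK3, a polo-like kinase of the stress response, averaged 53.8 ± 6.80 RPKM in RbLoTem cells and 8.80 ± 0.717 RPKM in RbHiTn cells, 6.11-fold higher (log2 fold change 2.61, SE 0.10, adjusted p = 2.8e-20 in edgeR). The sestrins, which restrain mTORC1 under stress, moved in opposite directions. SESN2 averaged 7.48 ± 0.760 RPKM in RbLoTem cells and 2.00 ± 0.194 RPKM in RbHiTn cells (log2 fold change 1.93, SE 0.19, adjusted p = 2.3e-10 in edgeR). SESN1 averaged 2.07 ± 0.315 RPKM in RbLoTem cells and 13.1 ± 0.170 RPKM in RbHiTn cells, 6.35-fold lower (log2 fold change -2.67, SE 0.14, adjusted p = 9.5e-17 in edgeR). FBXW7, which targets cyclin E and MYC for degradation, was at 9.62 RPKM in RbLoTem cells and 6.27 RPKM in RbHiTn cells (log2 fold change 0.63).

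Among the apoptosis targets, 5 of 10 tested were higher, with the member PHLDA3 among them, and 2 lower (70.0% called, beside 48.0% of all tested models). BAX, which permeabilises mitochondria, averaged 84.0 ± 0.683 RPKM in RbLoTem cells and 60.8 ± 1.00 RPKM in RbHiTn cells (log2 fold change 0.47, SE 0.07, adjusted p = 3.6e-07 in edgeR). EI24, a protein of the endoplasmic reticulum, was at 58.9 RPKM in RbLoTem cells and 44.6 RPKM in RbHiTn cells (log2 fold change 0.41). CASP6, an effector caspase, was at 2.29 ± 0.513 RPKM in RbLoTem cells and 0.810 ± 0.248 RPKM in RbHiTn cells (log2 fold change 1.53, SE 0.41, adjusted p = 0.0022 in edgeR). Beside TP53INP1, the other decrease was in BBC3, which encodes the apoptosis inducer PUMA and was named after its values were seen, at 0.354 RPKM in RbLoTem cells and 0.991 RPKM in RbHiTn cells (log2 fold change -1.41, SE 0.50, adjusted p = 0.021 in edgeR). BBC3 (4 and 6 reads in RbLoTem libraries, 14 and 12 in RbHiTn libraries) and TP53INP1 passed the filter on low counts only through RbHiTn cells. CASP6 (24 and 24 reads in RbLoTem libraries, 8 and 8 in RbHiTn libraries) passed it only through RbLoTem cells. The filter favours a difference in such genes, and nothing is read from these 3 calls or from the share of called genes that holds them.

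Among the metabolism, autophagy and DNA repair targets, 5 of 20 tested were higher and 6 lower (55.0% called, beside 48.0% of all tested models). GLS2, a mitochondrial glutaminase, averaged 6.80 ± 0.336 RPKM in RbLoTem cells and 1.43 ± 0.0190 RPKM in RbHiTn cells, 4.77-fold higher (log2 fold change 2.25, SE 0.19, adjusted p = 8.0e-12 in edgeR). RRM2B, the p53-inducible subunit of ribonucleotide reductase, was at 2.45 RPKM in RbLoTem cells and 1.43 RPKM in RbHiTn cells (log2 fold change 0.73), and IER5 had a log2 fold change of 0.37. DDB2, which recognises ultraviolet damage in DNA, averaged 2.45 ± 0.962 RPKM in RbLoTem cells and 7.88 ± 0.731 RPKM in RbHiTn cells, 3.36-fold lower (log2 fold change -1.75, SE 0.25, adjusted p = 5.8e-07 in edgeR). ANKRA2 (log2 fold change -0.65) and FUCA1, a lysosomal fucosidase (-0.44), were lower too. With DESeq2, the calls of TP53BP2, CASP6, BBC3, RRM2B, IER5, ANKRA2, FUCA1 and CCNG2 were lost. Leaving out 1 library ended the edgeR call of CASP6 (without RbHiTn replicate 1, adjusted p = 0.092), RRM2B (without RbHiTn replicate 2, 0.083), TP53BP2 and FUCA1 (without RbLoTem replicate 2, 0.17 and 0.20, or RbHiTn replicate 1, 0.51 and 0.55). IER5 lost its call without any library except RbLoTem replicate 2 (adjusted p of 0.095 to 0.16) and BBC3 without any of the 4 (0.069 to 0.14). The lower B cell and myeloid marker sums in RbLoTem cells stand beside each decrease in these lists, and their part was not tested.

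**Figure D4:**
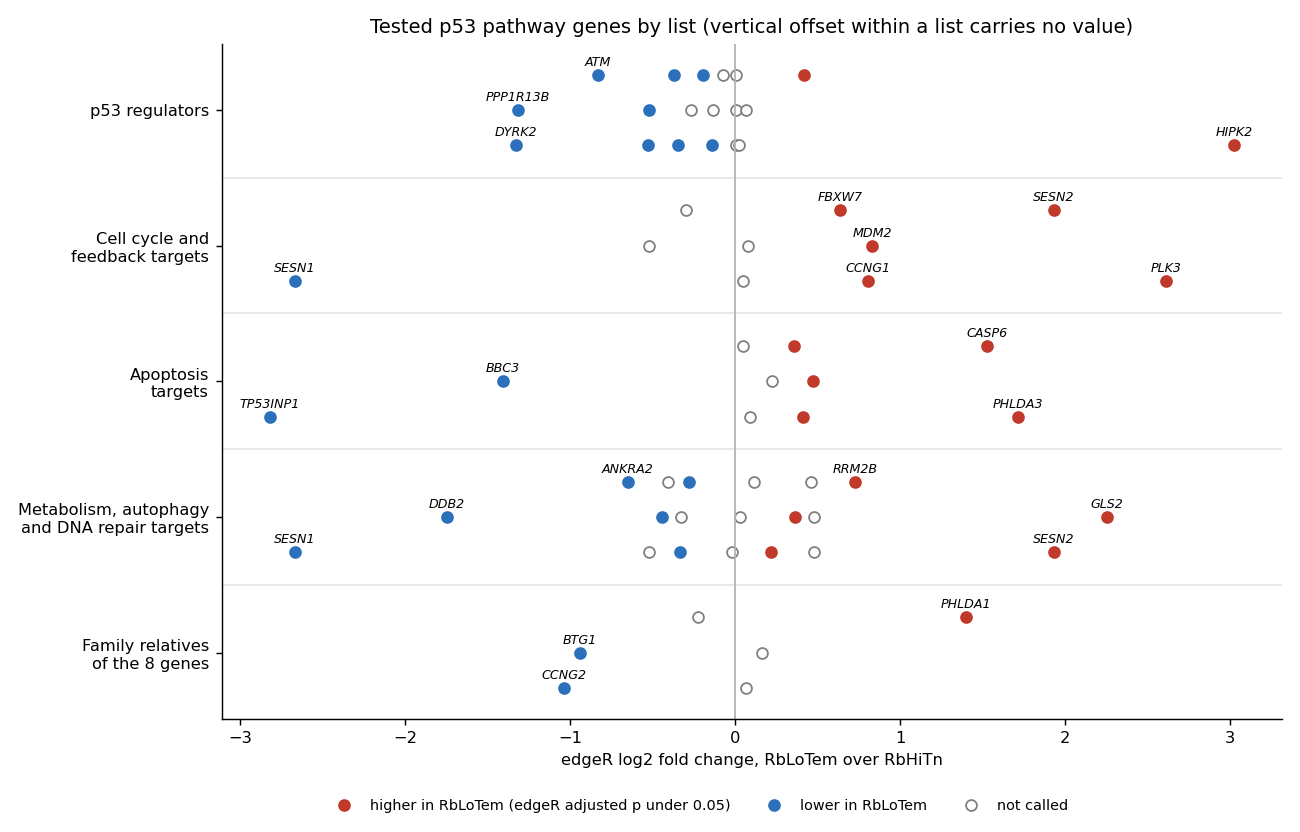
EdgeR log2 fold change of RbLoTem over RbHiTn for each tested gene of the p53 regulator list, the 3 p53 target lists and the family relatives, in bands from top to bottom (the offset within a band carries no value). Red and blue points had an adjusted p below 0.05 (higher and lower), and open points did not. HIPK2 (3.03), PLK3 (2.61) and GLS2 (2.25) lay far to the right and SESN1 (-2.67) and TP53INP1 (-2.82) far to the left.

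Of 13 listed proteins that GADD45 proteins bind or signal through, 9 were tested, and 2 were higher, 2 lower and 5 not called. The share called, 44.4%, was near the 48.0% of all tested models. MAP2K3, a kinase that activates p38, averaged 107.3 ± 5.40 RPKM in RbLoTem cells and 63.9 ± 2.22 RPKM in RbHiTn cells (log2 fold change 0.76, SE 0.06, adjusted p = 4.7e-12 in edgeR). MAPK14, the p38 alpha kinase, averaged 17.4 ± 0.508 RPKM in RbLoTem cells and 27.2 ± 1.35 RPKM in RbHiTn cells (log2 fold change -0.63, SE 0.08, adjusted p = 1.3e-07 in edgeR). MAP2K6, another activator of p38, was lower, at 1.95 RPKM in RbLoTem cells and 3.37 RPKM in RbHiTn cells (log2 fold change -0.81), although the call was lost with DESeq2 and without RbLoTem replicate 2 (log2 fold change -0.55, adjusted p = 0.062 in edgeR). CCNB1, the mitotic cyclin B1, was higher (log2 fold change 0.29). GADD45GIP1, a GADD45-binding protein of the mitochondrial ribosome, had 4 and 4 reads in RbLoTem libraries, against 8 and 6 reads in RbHiTn libraries, too few to test.

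The tested model with the most similar profile over the 4 libraries was found for each tested member from the distance between centred log2 read counts scaled to library size. It was ASB1 for MDM2 (distance 0.0650), FOSL2 for CCNG1 (0.0120), RAB34 for PHLDA3 (0.130), PRORSD1P for BTG2 (0.0360) and KBTBD11 for TP53INP1 (0.476). Of 6538 models, 240 lay within a distance of 0.25 of BTG2, 212 of CCNG1, 81 of MDM2, 9 of PHLDA3 and none of TP53INP1.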

How the data were processed

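Messenger RNA of RbLoTem and RbHiTn cells was sequenced in 2 libraries each. Tools named in the submitters' processing notes are Trimmomatic for trimming, TopHat and HTSeq, with DESeq2 and the genome mm10. The deposited tables hold read counts for models with human names and coordinates. The study's methods name TopHat guided by Gencode vM4, a mouse annotation, which does not match these human models. How this layout was made, and whether strand was used, was not given in the sources used here. Reads of antisense genes cannot be told apart, and those of paralogs only as far as the unique exon reads allow. RPKM values as deposited could be recomputed within 1% from exon reads, exon length and 1000000 reads in genes. The authors' median coverage signal was not used.

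Total exon reads (3795660 to 5873287 per library) were tested in R 4.3.3 by the quasi-likelihood method of edgeR 4.0.16, after filterByExpr and TMM scaling, with p adjusted by Benjamini and Hochberg and a threshold of 0.05. Groups came from sample titles. Standard errors were derived from the F statistic. Models too low to test were given as read ratios with exact 95% counting intervals, which cover counting error only. As alternatives, DESeq2 1.42.0 was run, limma 3.58.1 was run with RPKM on a log2 scale after adding 0.1 or 1, and edgeR was run with other scalings, without the filter, on unique reads, against a minimum log2 fold change of 1, with a replicate block and without each library.

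Members and lists were chosen with earlier results of these data known. Named genes were the 8 members, CDKN1A, family relatives, the nearest profiles and, from the p53, GADD45 partner and CCR4-NOT lists, up to 4 called genes per direction with the largest log2 fold change and a mean RPKM above 2 in the higher subset. TP53INP2, ZMAT1, ZMAT5, BTG3, TOB2 and GADD45G were not analysed here, and another gene that the rule names is not reported here. RefSeq promoter windows (GRCm38.p6) were scanned for the p53 decamer.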

Additional observations from a re-analysis of the deposited data

How the results depend on the processing

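PHLDA3 kept its call in every alternative run. TP53INP1 did too, but it passed the filter on low counts only through RbHiTn libraries, and nothing is read from that. With limma on log2(RPKM + 1) the log2 differences were smaller, -1.18 for TP53INP1, 1.23 for PHLDA3 and 0.46 for MDM2. MDM2 had a log2 fold change of 0.85 with DESeq2 (adjusted p = 0.089), of 0.83 in the test against a log2 fold change of 1 (adjusted p = 1.0) and of 0.68 to 0.99 with each library left out, where edgeR's adjusted p reached 0.051 without RbHiTn replicate 1. CCNG1, at 0.81, also lost its call in the test against 1 (adjusted p = 1.0), leaving 1 member called higher there. With each library left out, 2 to 3 members were called higher and 1 lower, CCNG1 lay between 0.76 and 0.85, PHLDA3 between 1.53 and 2.05, TP53INP1 between -3.69 and -2.12 and BTG2 between -0.67 and -0.34. BTG2 passed with limma on log2(RPKM + 1), at -0.39 (adjusted p = 0.049), so that 2 members were called lower there. Over all models, DESeq2 called 1074 higher and 929 lower, the test against 1 called 273 higher and 227 lower, and leaving out each library gave 1237 to 1483 higher and 1217 to 1381 lower. Of the p53 targets, DESeq2 called 9 higher and 3 lower, the test against 1 called 4 higher and 3 lower, and leaving out each library gave 10 to 14 higher and 5 to 6 lower, the fewest lower without RbHiTn replicate 2. Of the 35 other named genes that were called, 23 kept their call in all alternatives except the test against 1, where 28 lost it. The 35 include CYFIP2, a metabolism, autophagy and DNA repair target that the naming rule does not pick (log2 fold change 0.22). The uncalled value of MDM4 changed sign. It was at -0.00538 and -0.0927 without RbLoTem or RbHiTn replicate 1, and at 0.20 without RbHiTn replicate 2. With a replicate block on the label suffix, edgeR called 1562 models higher and 1530 lower, and MDM2 was at 0.84 (adjusted p = 0.0020). No member's call changed, and FUCA1 and CNOT3 lost theirs (adjusted p = 0.051 each). Deviations of libraries with the same suffix did not go together (r = -0.015 over 6539 models, which are not independent), and the libraries share only a label. With 2 libraries per subset and counts of 0 to 8 reads for ZMAT3, GADD45A and GADD45B, little could be seen for these genes. Whether depth or the human models kept these counts low was not tested.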

Other observations

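The CCR4-NOT deadenylase, the partner of BTG and TOB proteins, changed little in size. All 13 models of the list were tested, and 4 were higher in RbLoTem cells, 3 lower and 6 not called, with a median log2 fold change of -0.01. The share called was 53.8%, beside 48.0% of all tested models. CNOT11, a regulatory subunit, was at 26.5 RPKM in RbLoTem cells and 19.1 RPKM in RbHiTn cells (log2 fold change 0.47, SE 0.10, adjusted p = 0.00020 in edgeR). The deadenylase subunits CNOT6L (log2 fold change 0.35) and CNOT7 (0.23) and the subunit CNOT3 (0.15) were higher by less. CNOT7 and CNOT3 were not called with DESeq2 or in edgeR without RbHiTn replicate 1 (log2 fold changes 0.23 and 0.11). The call was also lost for CNOT7 without RbLoTem replicate 1 (0.19) and for CNOT3 without RbLoTem replicate 2 (0.13). PABPC1, the poly(A)-binding protein, was at 1511 RPKM in RbLoTem cells and 1919 RPKM in RbHiTn cells (log2 fold change -0.34), and CNOT2 (-0.21) and CNOT1 (-0.16) were lower, the second not without RbLoTem replicate 2 (edgeR adjusted p = 0.056) or RbHiTn replicate 2 (0.11).

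Cell cycle genes that p53 represses through p21 and the DREAM complex had a lower median than all genes. Of 12 tested, 2 were higher in RbLoTem cells and 7 lower (75.0% called, beside 48.0% of all tested models). The median log2 fold change was -0.32 beside -0.01 over all tested models. The activity of p53 was not measured, and its part in this difference was not tested. The part of the lower B cell and myeloid marker sums was not tested either.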
